A study of Homo sapiens with 18 samples.

Results

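A group of 9 NRF2 antioxidant response genes was followed across MCF10A cultures that differed in Hippo pathway hairpins and in transfected cDNAs. The members were GPX2, NQO1, HMOX1, GCLC, GCLM, TXNRD1, SRXN1, OSGIN1 and NFE2L2, out of 18404 genes measured. They were taken by gene symbol from the platform annotation, and each had exactly 1 probe set. They were selected on the difference in log2 intensity between the arrays labelled shLATS1+2 and the arrays labelled shLATS1B, and that difference is therefore described below without a test.

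MCF10A is an established, non-tumour human mammary epithelial cell line, and it was kept in an estrogen-containing medium. Total RNA from 6 groups, with 3 arrays in each, was hybridised to Affymetrix whole-transcript arrays. One group carried the non-targeting hairpin shNT and received YAP/TAZ plus ESR1 cDNA (the both-cDNA arrays). The shLATS1+2 group carried lentiviral hairpins labelled as targeting LATS1 and LATS2, the shLATS1B group carried a hairpin against LATS1, and both received control cDNA. The shNT cells that received ESR1 cDNA alone or YAP/TAZ cDNA alone made up the next 2 groups. The control arrays came from shNT cells with control cDNA. All groups had therefore been infected with lentivirus, selected in puromycin and transiently transfected, with RNA taken 5 days after transfection, and the labels do not call the replicates separate cultures, so p-values may rest on technical spread alone. All values are deposited log2 intensities, in which a difference of 1 is a 2-fold difference.

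NRF2, encoded by NFE2L2, is a transcription factor that KEAP1 and the CUL3 ubiquitin ligase normally send for degradation. Oxidants and electrophiles modify KEAP1, and NRF2 then binds antioxidant response elements together with small MAF proteins and switches on genes for glutathione and thioredoxin metabolism, quinone reduction and heme breakdown. Because NRF2 is regulated mainly at the protein level, its mRNA and the mRNAs of its targets are separate readouts. LATS1 and LATS2 are the Hippo kinases that restrain the co-activators YAP (YAP1) and TAZ (WWTR1), while estrogen receptor alpha is the product of ESR1.

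The labels were checked against the targeted genes. LATS1 had mean log2 intensities of 7.76 in the shLATS1+2 arrays and 7.66 in the shLATS1B arrays, against 8.86 in the control arrays, and it was lower in the 6 knockdown arrays (log2 change -1.15, limma adjusted p = 1.2e-09). LATS2, with means of 7.82 in the shLATS1+2 arrays and 7.73 in the control arrays, was not lower where its hairpin was labelled. YAP1 and WWTR1 averaged 10.79 and 9.44 in the arrays labelled YAP/TAZ cDNA, against 10.84 and 9.57 in the control arrays, so neither was higher there. WWTR1 averaged 9.99 in the both-cDNA arrays, but also 9.80 in shLATS1+2 and 10.01 in shLATS1B, and YAP1 averaged 10.88 in the both-cDNA arrays. ESR1 averaged 6.47 in the ESR1 cDNA arrays and 6.03 in the both-cDNA arrays, but also 6.40 in the shLATS1+2 arrays and 6.37 in the shLATS1B arrays, against 5.52 in the control arrays. Where these probe sets lie relative to the cDNA vectors was not analysed here, so they do not settle the cDNA labels. The first principal component held 47.3% of the variance and placed the both-cDNA and knockdown arrays (scores 9.83 to 22.7) opposite the single-cDNA and control arrays (scores -23.0 to -10.3). Comparisons of the both-cDNA or knockdown arrays with control cross that division, and a batch along it cannot be told apart from the groups. All 7 measured mammary epithelial markers were above the dim mark of 5.21, the 30th percentile of gene means, in every group. KRT14, a basal keratin, averaged 8.15 in the both-cDNA arrays, 8.06 in shLATS1+2 and 7.85 in shLATS1B, with 9.65 in the ESR1 cDNA and 9.70 in the YAP/TAZ cDNA arrays, against 10.43 in the control arrays. KRT8, a luminal keratin, averaged 11.72 in the both-cDNA arrays, 11.98 in shLATS1+2 and 12.17 in shLATS1B, against 11.07 in the control arrays. The fibroblast marker DCN had means of 4.52 to 5.13 in the other 5 groups, all below the dim mark, against 6.67 in the control arrays. The other fibroblast markers did not follow it. The group means of COL1A1, COL1A2, PDGFRA and LUM each spanned at most 0.16 log2 units, and PDGFRA and LUM were dim in every group. The endothelial marker PECAM1 averaged 6.01 in the both-cDNA arrays, 6.58 in shLATS1+2 and 6.28 in shLATS1B, against 5.73 in the control arrays. The other endothelial markers, VWF, CDH5 and KDR, were dim in every group, and their group means each spanned at most 0.11 log2 units. The mean of the 4 measured leukocyte markers moved along the same division, with 7.67 to 7.76 in the both-cDNA arrays, 7.53 to 7.61 in shLATS1+2 and 7.62 to 7.65 in shLATS1B, against 6.99 to 7.01 in the control arrays. Of these 4, PTPRC and CD3E were dim in every group, while CD68 and CD14 were not, and the part of these marker shifts in the results below was not tested.

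GPX2 encodes an epithelial glutathione peroxidase, a selenoenzyme that uses glutathione to reduce hydroperoxides. GPX2 (probe set 7979658) had log2 intensities of 8.41, 8.67 and 8.65 in the both-cDNA arrays. In the shLATS1+2 arrays it read 7.24, 7.08 and 6.87, and in the shLATS1B arrays 6.24, 6.17 and 5.97. These 3 groups were stepped, with no overlap between both-cDNA and shLATS1+2 arrays or between shLATS1+2 and shLATS1B arrays. In the ESR1 cDNA arrays GPX2 read 5.70, 5.16 and 5.58. In the YAP/TAZ cDNA arrays it read 5.37, 5.21 and 5.38, and in the control arrays 5.98, 6.02 and 5.81. All 6 single-cDNA arrays lay below all 3 control arrays, whereas the shLATS1B arrays overlapped the control arrays. The second ESR1 cDNA array was below the dim mark and the second YAP/TAZ cDNA array was at it, so the lowest GPX2 levels lie in the dim range. The arrays read bulk RNA, in which fewer cells with a transcript and less of it per cell cannot be told apart. GPX2 had the widest range of group means of the 9 members, 3.25 log2 units, and the next widest was GCLC with 0.90.

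**Figure D1:**
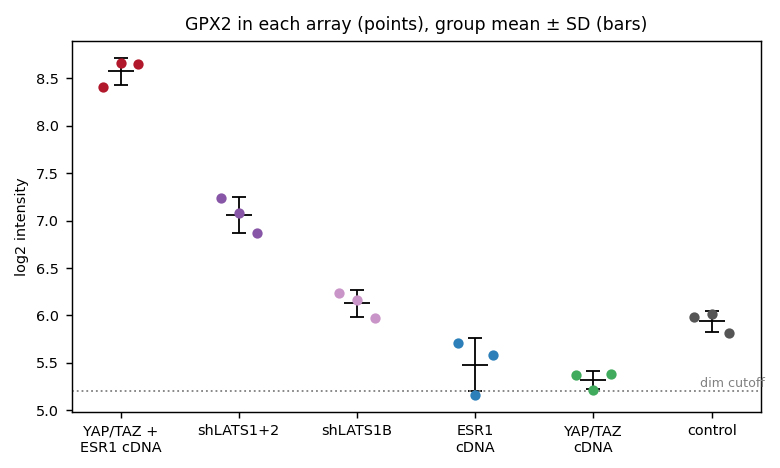
GPX2 log2 intensity (vertical axis) in each of the 18 arrays (points) with the mean and SD of each group of 3 (bars) and the dim mark (dotted line). The both-cDNA arrays lie between 8.41 and 8.67, the shLATS1+2 arrays between 6.87 and 7.24, and the other 4 groups between 5.16 and 6.24.

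The GPX2 promoter is shown because GPX2 was the member with the widest range and its proximal promoter holds the core of an antioxidant response element. RefSeq promoters (GRCh38.p14) were found for 8 of the 9 members, all but HMOX1, in 10 start-site windows. Only the 250 bases next to each start were searched, so elements further upstream would be missed. The 250 bases upstream of each start were searched on both strands for TGACNNNGC, the element's core, and 4 windows from GPX2, GCLM and TXNRD1 held it. Of all 35116 promoter windows of that length, 10.9% held the same letters. In the sequences below, written 5′ to 3′ on the gene's own strand, capitals mark the match, which reads as the core or as its reverse complement.
GPX2 promoter, chr14:64942746-64942995, minus strand: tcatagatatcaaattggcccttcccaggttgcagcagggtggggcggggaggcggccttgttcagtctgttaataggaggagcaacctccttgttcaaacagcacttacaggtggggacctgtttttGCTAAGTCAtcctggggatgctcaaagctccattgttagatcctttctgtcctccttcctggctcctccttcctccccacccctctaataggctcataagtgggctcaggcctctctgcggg
GCLM, chr1:93909431-93909490, minus strand: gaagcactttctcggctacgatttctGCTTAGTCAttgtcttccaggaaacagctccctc
TXNRD1, upstream start, chr12:104215654-104215714, plus strand: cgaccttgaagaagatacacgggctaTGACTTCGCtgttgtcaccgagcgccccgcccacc
TXNRD1, downstream start, chr12:104286904-104286964, plus strand: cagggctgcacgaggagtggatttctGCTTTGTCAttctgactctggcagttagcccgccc
The GPX2 match lies 122 to 114 bases upstream of the start and reads TGACTTAGC on the other strand. The GCLM match lies 34 to 26 bases upstream and reads TGACTAAGC on the other strand. The TXNRD1 matches read TGACTTCGC at 99 to 91 bases upstream of its upstream start and TGACAAAGC at 102 to 94 bases upstream of its downstream start. Against control, GPX2 and TXNRD1 were called higher in the both-cDNA arrays and GCLM was not, as given below. In the knockdown arrays GPX2 and TXNRD1 were called higher than control and GCLM lower. Between both-cDNA and knockdown arrays all 3 were called higher in the both-cDNA arrays, as were GCLC and SRXN1, whose windows did not hold the core. Any part of the core in these levels was not tested. The AP-1 site TGANTCA was present in the OSGIN1 window alone of the members' (6.57% of all windows), the TEAD site GGAATG in the SRXN1 window alone (11.9%), and a full estrogen response element in none (0.0399%). A match describes letters in a window and not a site in use.

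NFE2L2, the gene of NRF2 itself (probe set 8056977), read 10.36, 10.49 and 10.52 in the both-cDNA arrays, 10.33, 10.27 and 10.18 in shLATS1+2 and 10.32, 10.42 and 10.33 in shLATS1B. It read 10.05, 9.85 and 9.87 in the ESR1 cDNA arrays, 9.98, 10.14 and 9.99 in the YAP/TAZ cDNA arrays and 10.00, 9.98 and 9.91 in the control arrays. The 9 both-cDNA and knockdown arrays all lay above the other 9. That is also the division along the first principal component, and the share of all genes split in this way was not counted. TXNRD1, the cytosolic thioredoxin reductase (probe set 7958174), followed the same division. It read 10.21, 10.30 and 10.31 in the both-cDNA arrays, 10.14, 10.12 and 9.98 in shLATS1+2 and 9.84, 9.85 and 9.98 in shLATS1B. It read 9.78, 9.72 and 9.64 in the ESR1 cDNA arrays, 9.73, 9.77 and 9.69 in the YAP/TAZ cDNA arrays and 9.56, 9.81 and 9.61 in the control arrays. Within the upper side, the both-cDNA arrays lay above all knockdown arrays, and the 2 knockdown groups overlapped.

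NQO1 encodes a quinone reductase that spares cells redox cycling of quinones. NQO1 (probe set 8002303) read 12.51 in all 3 both-cDNA arrays, 12.53, 12.51 and 12.55 in shLATS1+2 and 12.40, 12.39 and 12.34 in shLATS1B. It read 12.15, 12.20 and 12.22 in the ESR1 cDNA arrays, 12.22, 12.20 and 12.21 in the YAP/TAZ cDNA arrays and 12.19, 12.34 and 12.28 in the control arrays. The both-cDNA and shLATS1+2 arrays shared the top level, and the shLATS1B arrays touched the control range. All 18 values lay within 0.41 log2 units, in a table whose highest value was 13.75.

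GCLC and GCLM encode the catalytic and modifier subunits of glutamate-cysteine ligase, which catalyses the rate-limiting step of glutathione synthesis. GCLC (probe set 8127158) read 10.73, 10.84 and 10.84 in the both-cDNA arrays, 10.05, 9.99 and 9.66 in shLATS1+2 and 9.89, 9.95 and 10.00 in shLATS1B. It read 10.29, 9.91 and 9.87 in the ESR1 cDNA arrays, 10.15, 10.30 and 10.20 in the YAP/TAZ cDNA arrays and 10.73, 10.51 and 10.47 in the control arrays. The highest levels were thus in both-cDNA and control arrays, which met at 10.73, and the knockdown arrays were low, overlapping the ESR1 cDNA arrays. GCLM (probe set 7917779) read 7.91, 7.99 and 8.05 in the both-cDNA arrays, 7.81, 7.68 and 7.44 in shLATS1+2 and 7.42, 7.57 and 7.56 in shLATS1B. It read 8.03, 7.70 and 7.67 in the ESR1 cDNA arrays, 7.90, 7.93 and 8.02 in the YAP/TAZ cDNA arrays and 8.03, 8.15 and 7.93 in the control arrays. Every knockdown array was below every control array, and each neighbouring pair in the order of GCLM group means overlapped.

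SRXN1 encodes sulfiredoxin, which restores over-oxidised peroxiredoxins (probe set 8064375). It read 10.10, 10.24 and 10.23 in the both-cDNA arrays, 9.89, 9.84 and 9.98 in shLATS1+2 and 9.77, 9.80 and 9.72 in shLATS1B. It read 10.05, 10.03 and 10.08 in the ESR1 cDNA arrays, 10.12, 10.05 and 10.11 in the YAP/TAZ cDNA arrays and 10.31, 10.33 and 10.22 in the control arrays. SRXN1 was lowest in shLATS1B, next lowest in shLATS1+2, and the knockdown arrays overlapped no other group. HMOX1, the inducible heme oxygenase (probe set 8072678), lay between 6.24 and 6.47 in all 18 arrays, and OSGIN1, an oxidative stress-induced growth inhibitor (probe set 7997533), between 6.32 and 6.64. The group means of HMOX1 and OSGIN1 spanned 0.073 and 0.17 log2 units, and their neighbouring groups all overlapped. Both genes lay near the median gene mean of 6.404, and how much of their signal was specific was not tested.

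**Figure D2:**
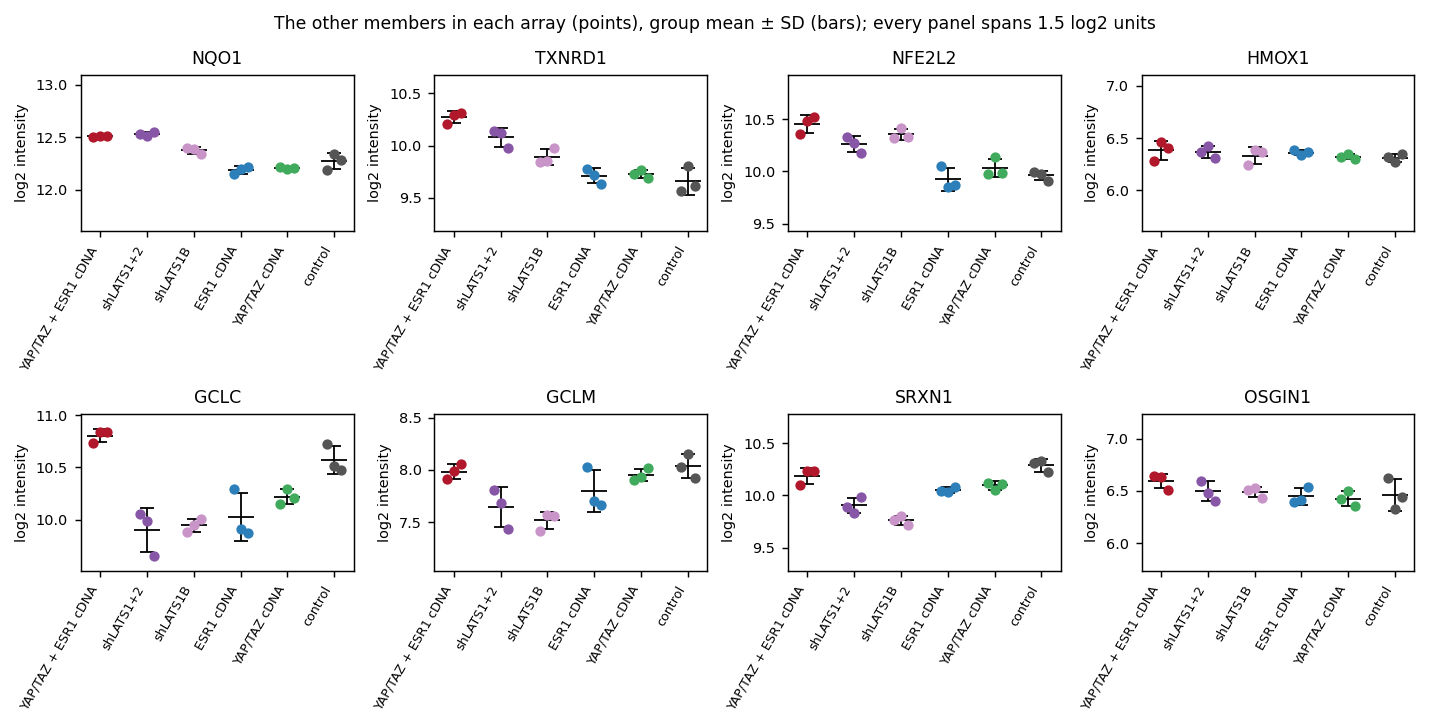
Log2 intensity (vertical axes, each spanning 1.5 log2 units) of the other 8 members in each of the 18 arrays (points), with the mean and SD of each group of 3 (bars). TXNRD1 and NFE2L2 are high in the both-cDNA and knockdown arrays, NQO1 is high in the both-cDNA and shLATS1+2 arrays, GCLC, GCLM and SRXN1 are low in the knockdown arrays, and HMOX1 and OSGIN1 are flat.

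The levels of the members were set against each other over the 18 arrays. GPX2 had Pearson's r of 0.91 with TXNRD1, 0.85 with NQO1 and 0.79 with NFE2L2. GCLC had r = 0.81 with GCLM and 0.73 with SRXN1, and GCLM had r = 0.82 with SRXN1. GPX2 had r = 0.11 with GCLM, 0.11 with SRXN1 and 0.50 with GCLC. OSGIN1 had at most 0.58 with another member, GPX2, and HMOX1 at most 0.43, with TXNRD1. These correlations describe 18 arrays in 6 groups, with the group differences included, and the arrays are not 18 independent conditions.

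The comparisons with control share the same 3 control arrays, and each is given by its own values. In the both-cDNA arrays, GPX2 averaged 8.58 ± 0.14, against 5.94 ± 0.11 in the control arrays (SD, n = 3 each). This was a log2 change of 2.64 ± 0.13 (SE), or 6.22-fold, with a limma adjusted p of 8.9e-11, and it ranked 34 of 18404 genes by the size of the change. The thioredoxin reductase TXNRD1 rose by 0.61 ± 0.066 (adjusted p = 1.7e-06), NFE2L2 by 0.49 ± 0.065 (adjusted p = 1.6e-05) and NQO1 by 0.24 ± 0.041 (adjusted p = 0.00023). For these 4 genes and for GCLC all 3 both-cDNA arrays lay above all 3 control arrays, as they did for 18.8% of all genes. The remaining members did not pass the test: GCLC had a change of 0.23 (adjusted p = 0.13), OSGIN1 0.13 (0.21), HMOX1 0.07 (0.35), GCLM -0.05 (0.76) and SRXN1 -0.10 (0.18). Thus 4 of 9 members were called, all higher, where 29.4% of all genes were called and 14.7% were called higher. The median change was 0.23 over the 9 members and -0.0043 over all genes. Without the first ESR1 cDNA array, which changes only the shared estimate of spread, GCLC reached an adjusted p of 0.049, and without the first control array OSGIN1 reached 0.028. Over the alternatives other than leaving out 1 array, the lowest limma adjusted p of GCLC was 0.0079.

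Over the 6 knockdown arrays, members moved in both directions relative to control. GPX2 was higher by 0.66 ± 0.11 (SE, limma adjusted p = 0.00018), NFE2L2 by 0.35 ± 0.056 (0.00015), TXNRD1 by 0.32 ± 0.057 (0.00032) and NQO1 by 0.18 ± 0.036 (0.00076). The glutathione synthesis genes GCLC and GCLM fell by 0.65 ± 0.094 (adjusted p = 4.9e-05) and 0.46 ± 0.085 (0.00054), and SRXN1 fell by 0.45 ± 0.044 (5.1e-07). HMOX1 and OSGIN1 had changes of 0.04 and 0.03, with adjusted p of 0.63 and 0.79. Of the 9 members 7 were called, 4 higher and 3 lower, where 27.6% of all genes were called, 13.6% higher and 14% lower. The median change was 0.04 over the 9 members and -0.0072 over all genes. The GPX2 call averages unlike groups: against control, GPX2 differed by 1.12 (2.18-fold) in the shLATS1+2 arrays and by 0.19 in the shLATS1B arrays, which overlapped the control arrays. NQO1 likewise differed by 0.26 in shLATS1+2 and by 0.11 in shLATS1B, where its arrays overlapped control. GCLC differed by -0.67 in shLATS1+2 and -0.62 in shLATS1B, so its lower level was of like size in each. These values for single knockdowns are given without a test because the choice of members drew on their difference.

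Between the knockdowns, GPX2 was 0.93 log2 units (1.91-fold) higher in shLATS1+2 than in shLATS1B. TXNRD1 differed by 0.19, NQO1 by 0.16, SRXN1 by 0.14, GCLM by 0.13, HMOX1 by 0.03, OSGIN1 by 0.01, GCLC by -0.04 and NFE2L2 by -0.09. The arrays of the 2 knockdowns did not overlap for GPX2, NQO1 and SRXN1, all higher in shLATS1+2, where 25.2% of all genes did not overlap and 11% were higher. The sign of the GCLC difference turned with the third shLATS1+2 array left out, to 0.08. The HMOX1 difference turned to -0.01 without the first shLATS1B array, and the OSGIN1 difference to -0.05 without the first shLATS1+2 array and to -0.02 without the third shLATS1B array, with arrays centred on their medians and after quantile normalization.

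The both-cDNA and knockdown arrays lie on the same side of the first component, and their comparison shares no control arrays. GPX2 was higher in the both-cDNA arrays than in the knockdown arrays by 1.98 ± 0.11 (SE, 3.95-fold, limma adjusted p = 3.7e-09), the third largest change of 18404 genes. GCLC was higher by 0.88 ± 0.094 (adjusted p = 5.2e-06), GCLM by 0.40 ± 0.085 (0.0031), SRXN1 by 0.36 ± 0.044 (2.3e-05) and TXNRD1 by 0.29 ± 0.057 (0.0018). NQO1 and NFE2L2 had differences of 0.06 (adjusted p = 0.35) and 0.15 (0.087), and HMOX1 and OSGIN1 had 0.04 (0.70) and 0.10 (0.33). Of the 9 members 5 were called, all higher, where 18.1% of all genes were called and 9.22% were called higher. NFE2L2 was also called after quantile normalization (adjusted p = 0.026), without the first both-cDNA array (0.040) and without the first ESR1 cDNA array (0.045).

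With a single cDNA the called members were all lower than control. In the YAP/TAZ cDNA arrays GPX2 fell by 0.62 ± 0.13 (SE, limma adjusted p = 0.0051), to a mean of 5.32 ± 0.095 against 5.94 ± 0.11 in the control arrays (SD, n = 3 each). SRXN1 fell by 0.19 ± 0.051 (adjusted p = 0.029), and GCLC, at -0.35, had an adjusted p of 0.067. The other members had changes from -0.08 (GCLM) to 0.07 (NFE2L2). Of the 9 members 2 were called, both lower, where 7% of all genes were called and 3.84% were called lower. The SRXN1 call was lost without the first or the second control array (adjusted p = 0.081 and 0.13) and without any 1 of the YAP/TAZ cDNA arrays (0.057, 0.13 and 0.067). It was also lost with the YAP/TAZ cDNA and control arrays fitted alone (0.071), where GCLC was called (0.024). GCLC, in turn, was called without the first ESR1 cDNA array (0.016) and without the third shLATS1+2 array (0.030). Over the alternatives other than leaving out 1 array, its lowest limma adjusted p was 0.0016.

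In the ESR1 cDNA arrays GCLC fell by 0.55 ± 0.11 (SE, limma adjusted p = 0.0020), GPX2 by 0.46 ± 0.13 (0.017) and SRXN1 by 0.23 ± 0.051 (0.0038). Of the 9 members 3 were called, all lower, where 18.9% of all genes were called and 11.9% were called lower. For each of the 3, all ESR1 cDNA arrays lay below all control arrays, as they did for 13.7% of all genes. GCLM, at -0.24, had an adjusted p of 0.11, and 0.0069 without the first ESR1 cDNA array. Over the alternatives other than leaving out 1 array, its lowest limma adjusted p was 0.0011. The other members had changes from -0.08 (NQO1) to 0.05 (TXNRD1), and NQO1 was called, at -0.15, with arrays centred on their medians (adjusted p = 0.035). None of the 3 calls held when the ESR1 cDNA and control arrays were fitted alone (adjusted p of 0.051 for GCLC, 0.11 for GPX2 and 0.057 for SRXN1). The GPX2 call was also lost without the first control array (0.055), the second control array (0.068) or the second ESR1 cDNA array, which took the change to -0.30 (0.10).

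**Figure D3:**
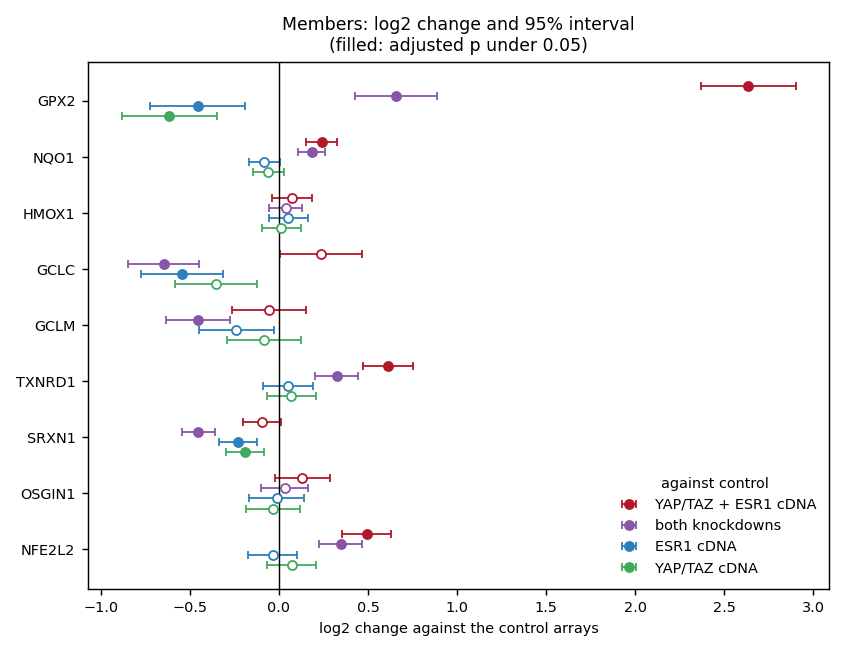
Log2 change against the control arrays (horizontal axis) of the 9 members in the both-cDNA arrays, the 6 knockdown arrays together, the ESR1 cDNA arrays and the YAP/TAZ cDNA arrays, with 95% intervals, filled where the adjusted p was under 0.05. GPX2 lies at 2.64 in the both-cDNA arrays and below 0 with either cDNA alone, and GCLC, GCLM and SRXN1 lie below 0 in the knockdown arrays.

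The interaction asks whether the change with both cDNAs differs from the sum of the changes with each cDNA alone. GPX2 had an interaction of 3.71 ± 0.18 (SE, limma adjusted p = 3.5e-10), since it was higher with both cDNAs and lower with each alone. GCLC had 1.13 ± 0.15 (adjusted p = 6.9e-05): its means were 10.80 with both cDNAs, 10.02 with ESR1 cDNA and 10.22 with YAP/TAZ cDNA, against 10.57 in the control arrays. TXNRD1 had 0.49 ± 0.093 (0.0013), NFE2L2 0.46 ± 0.091 (0.0022), NQO1 0.38 ± 0.058 (0.00020) and SRXN1 0.33 ± 0.072 (0.0042). Of the 9 members 6 were called, all with positive values, where 19.1% of all genes were called and 11.4% were called with positive values. HMOX1 and OSGIN1 had 0.01 and 0.18 (adjusted p = 0.95 and 0.25). GCLM, at 0.27, did not pass (adjusted p = 0.20), and it reached 0.023 without the first ESR1 cDNA array. Over the alternatives other than leaving out 1 array, its lowest limma adjusted p was 0.0051. The interaction sets 1 group from one side of the first component against 3 from the other.

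The other 69 genes of 8 NRF2 pathway lists were read beside the members, and 62 were measured. In the both-cDNA arrays 29 of the 62 were called against control, 22 higher and 7 lower, that is 46.8%. Over all genes 29.4% were called, and 14.7% were called higher. Here and in the comparisons below, the share over all genes includes dim genes and was not matched to the lists in brightness. Single lists are small, and some of them lay near or below the 29.4% called over all genes. The NRF2 regulators had 4 of 7 higher and none lower: SQSTM1, an autophagy receptor that sequesters KEAP1 (0.99, limma adjusted p = 7.3e-10), the related factor NFE2L1 (0.59), and the small MAF partners MAFF (0.34) and MAFG (0.34). Glutathione synthesis and cystine uptake had 5 of 5 higher, with the glutathione-degrading enzyme CHAC1 at 1.80 (adjusted p = 4.5e-09), the cystine transporter SLC7A11 at 0.53 (3.4e-08), glutathione synthetase GSS at 0.50 and glutathione reductase GSR at 0.39. CHAC1 is a target of the ATF4 stress response and breaks glutathione down, and so does not act as the name of that list says. Glutathione peroxidases and transferases had 3 of 15 higher and 2 lower, among them GSTM4 at 0.29 and GSTO1 at -0.81. Of the quinone and carbonyl reductase and export list, 5 of 11 were higher and 3 lower, with the aldehyde dehydrogenase ALDH3A1 at 1.20 (3.7e-07), the epoxide hydrolase EPHX1 at 0.84 and the transporters ABCC2 at 0.67 and ABCC4 at -1.17 (2.6e-09). NADPH supply had 2 of 5 higher, IDH1 at 0.90 and TKT at 0.44, and heme breakdown and iron storage had 2 of 6 higher, SLC48A1 at 0.84 and the ferritin light chain FTL at 0.33, with HMOX2 lower at -0.27. Among thioredoxin genes, TXNIP, the thioredoxin inhibitor, was higher by 1.55 (1.4e-11) and the peroxiredoxin PRDX4 was lower by 0.58, and 2 of 9 were called. Superoxide dismutases and catalase had no call among 4. The median change of the 62 genes was 0.07, against -0.0043 over all genes.

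In the knockdown arrays 27 of the 62 pathway genes were called against control, 19 higher and 8 lower, that is 43.5%. Over all genes 27.6% were called, 13.6% higher and 14% lower. SLC7A11 fell by 0.60 ± 0.036 (SE, limma adjusted p = 1.2e-09), with a mean of 9.67 in shLATS1+2 and 9.27 in shLATS1B, against 10.07 in the control arrays. It thus moved down with GCLC and GCLM while GSS (0.43), GSR (0.28) and CHAC1 (0.39) of the same list rose. TXNIP (1.15), IDH1 (0.72), SLC48A1 (0.79), ABCC2 (0.66), EPHX1 (0.45), FTL (0.28) and SQSTM1 (0.54) were higher, and ABCC4 (-1.15), NQO2 (-0.58) and TALDO1 (-0.29) were lower. In heme breakdown and iron storage 5 of 6 were called, among them the biliverdin reductases BLVRA (0.32) and BLVRB (0.30), both higher. The median change of the 62 genes was 0.02, against -0.0072 over all genes. Between the both-cDNA and knockdown arrays 20 of the 62 were called, 15 higher and 5 lower, that is 32.3%. Over all genes 18.1% were called, and 9.22% were called higher. The pathway calls were led by CHAC1 (1.41), ALDH3A1 (1.29) and SLC7A11 (1.13, adjusted p = 9.4e-12). ALDH3A1 had means of 10.95 in the both-cDNA arrays, 9.63 in shLATS1+2 and 9.70 in shLATS1B, against 9.75 in the control arrays. Members included, the count between both-cDNA and knockdown arrays was 25, and 16 without the third both-cDNA array.

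**Figure D4:**
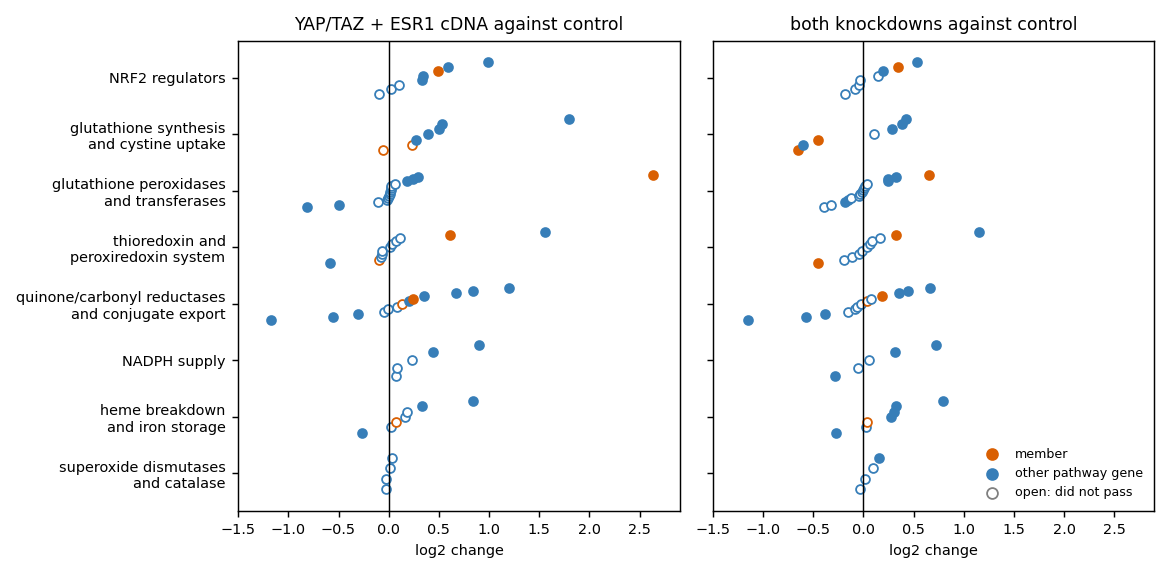
Log2 change against the control arrays (horizontal axes) of each measured gene in 8 NRF2 pathway lists (rows), in the both-cDNA arrays (left) and the 6 knockdown arrays together (right), members in orange and other genes in blue, filled where the adjusted p was under 0.05. Without the members, glutathione synthesis and cystine uptake has 5 of 5 genes filled to the right of 0 in the both-cDNA arrays, and GCLC, GCLM and SLC7A11 lie to the left of 0 in the knockdown arrays.

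In the YAP/TAZ cDNA arrays 11 of the 62 pathway genes were called against control, 5 higher and 6 lower, that is 17.7%. Over all genes 7% were called, and 3.84% were called lower. The pathway calls were led by CHAC1 (0.80), TXNIP (0.73), SLC48A1 (0.50) and ABCC4 (-0.40). Members included, the count of pathway calls with YAP/TAZ cDNA was 13, and 8 without the third YAP/TAZ cDNA array. In the ESR1 cDNA arrays 21 of the 62 were called, 9 higher and 12 lower, that is 33.9%. Over all genes 18.9% were called, and 11.9% were called lower. Among the pathway calls were CHAC1 (1.35), TXNIP (0.91), ABCC4 (-0.63), SLC48A1 (0.58), CUL3 (-0.44) and PGD (-0.39). Members included, the count of pathway calls with ESR1 cDNA was 24, 15 without the second ESR1 cDNA array, and 6 when only the groups compared were fitted. The interaction was called for 23 of the 62 genes, 22 positive and 1 negative, that is 37.1%. Over all genes 19.1% were called, and 11.4% were called with positive values. The largest called values were ALDH3A1 at 1.70, EPHX1 at 1.30, GSTM4 at 0.91 and TKT at 0.82. All 5 measured NADPH supply genes, PGD, TALDO1, TKT, ME1 and IDH1, had a called positive interaction, between 0.24 and 0.82, and ME1 is named here after its value was seen. The other lists had fewer. Called were 5 of 7 NRF2 regulators, KEAP1 and CUL3 among them, and 3 of 5 in glutathione synthesis and cystine uptake. So were 5 of 11 in the quinone and carbonyl reductase and export list, and 4 of 15 glutathione peroxidases and transferases. Heme breakdown and iron storage had 1 of 6, thioredoxin genes 0 of 9, and superoxide dismutases and catalase 0 of 4. The median interaction of the 62 genes was 0.08, against 0.00022 over all genes. The only negative call was the glutathione transferase GSTO1, at -0.78.

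The other measured glutathione peroxidases had changes of at most 0.50 in size against control in these 2 comparisons. In the both-cDNA arrays GPX4, which reduces lipid hydroperoxides, was higher by 0.24 (limma adjusted p = 0.00096) and GPX8, a peroxidase of the endoplasmic reticulum, was lower by 0.50 (0.031), while GPX1 and GPX3 had changes of 0.02 each (0.90 and 0.83). In the knockdown arrays GPX4 was higher by 0.32 (1.3e-05) and GPX1 by 0.25 (0.0057), and GPX8 had -0.39 (0.054), with -0.18 in shLATS1+2 and -0.59 in shLATS1B. Their interactions were 0.35 for GPX4 (0.0015), -0.29 for GPX1 (0.056), -0.65 for GPX8 (0.061) and -0.03 for GPX3 (0.86). GPX3 had group means between 5.20 and 5.30, at the dim mark.

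Genes most like GPX2 were ranked by Pearson's r over the 18 arrays, among 3447 genes whose group means spanned at least 0.5 log2 units. The nearest was AKR1B10, an aldo-keto reductase (r = 0.97), with means of 8.36 in the both-cDNA arrays, 7.00 in shLATS1+2, 5.98 in shLATS1B, 5.38 with ESR1 cDNA and 5.77 with YAP/TAZ cDNA, against 6.02 in the control arrays. Like GPX2, AKR1B10 was stepped from both-cDNA to shLATS1+2 to shLATS1B. The next were the matrix metalloproteinase MMP2, the aldo-keto reductase AKR1C2, the antiproliferative factor TOB1 and the lipid hydrolase ABHD4, each with r = 0.94. AKR1C2 had means of 12.56 in the both-cDNA arrays, 12.26 in shLATS1+2, 11.65 in shLATS1B, 11.34 with ESR1 cDNA and 11.25 with YAP/TAZ cDNA, against 11.86 in the control arrays. AKR1C genes are near-identical in sequence, so its signal may include that of its relatives.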

How the data were processed

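The authors deposited 1 table of log2 intensities for 32321 probe sets on 18 arrays. The submitters' processing notes name the package affy, without a version, and give no background correction or normalization. The medians of the arrays ran between 5.494 and 5.619. Of the probe sets, 19158 had 1 gene symbol in the platform annotation, 1388 several and 11775 none, and 19128 matched a RefSeq gene table. Each of the 18404 genes was represented by its brightest probe set. Arrays of 1 group correlated with r between 0.993 and 0.999 over genes, and no columns were identical.

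A single linear model of all arrays, with group means as its terms, was fitted (R 4.3.3, limma 3.58.1, lmFit, contrasts.fit and eBayes). It left 12 residual degrees of freedom, to which moderation added 3.94. Tests were two-sided with Benjamini-Hochberg adjustment over the 18404 genes of a comparison, and a gene was called at an adjusted p under 0.05. The script was tested on simulated data. The knockdowns were tested as the mean of both groups, with weights orthogonal to those of the difference that entered the choice of members. The same knockdown arrays enter both, so the choice and the test do not rest on separate data. The number of arrays limits the precision.

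The members and lists were chosen with earlier results of these data known. The text names all members, the 5 genes most like each member, the targeted genes and the other glutathione peroxidases. Apart from ME1, other pathway genes were taken from the up to 4 called genes of each list and comparison with the largest change. Not all of these are named. Alternatives were array centring, quantile normalization, dropping dim genes, other probe set rules, a replicate block, a variance trend, fitting only the groups compared, and leaving out arrays. Listed genes without a value were not analysed here.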

Additional observations from a re-analysis of the deposited data

Results flagged for a closer look

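The response to the YAP/TAZ and ESR1 cDNAs together differed from the sum of the responses to each for 6 members, by the interaction term of the limma fit over 18404 genes. GPX2 had an interaction of 3.71 on the log2 scale (adjusted p = 3.5e-10), with means of 8.58 in the both-cDNA arrays, 5.48 with ESR1 cDNA and 5.32 with YAP/TAZ cDNA, against 5.94 in the control arrays. GCLC had 1.13, with means of 10.80, 10.02 and 10.22 in the same 3 groups, against 10.57 in the control arrays. TXNRD1 had 0.49, NFE2L2 0.46, NQO1 0.38 and SRXN1 0.33. Each had an adjusted p under the threshold in all 27 alternatives tried. The part of the labels that the targeted genes do not bear out, and of the division along the first component, in these values was not tested.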

How the results depend on the processing

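Over 27 alternatives and 6 comparisons, 1428 of 1458 member tests kept their direction and their side of the threshold, 15 lost a call, 15 gained one, and none of the called values turned sign. All 7 calls in the knockdown arrays stood under every alternative, while members called with both cDNAs numbered 4 or 5, in the interaction 6 or 7, and between both-cDNA and knockdown arrays 5 or 6. With YAP/TAZ cDNA the count was 1 in place of 2 after centring arrays on their medians, with a variance trend and with the replicate block, since SRXN1 then had adjusted p of 0.054, 0.052 and 0.051, it stayed 2 when only the groups compared were fitted, where SRXN1 was lost and GCLC gained, and it was 1 to 3 with 1 array left out. With ESR1 cDNA it was 0 in place of 3 when only the groups compared were fitted, where 1126 genes were called in place of 3487, and 2 to 4 with 1 array left out. Over all genes the ESR1 cDNA count was 5461 without the first ESR1 cDNA array and 2299 without the second. The interaction count was 5607 in place of 3512 without that first array, the YAP/TAZ cDNA count 848 in place of 1289 without the second YAP/TAZ cDNA array, and the count between both-cDNA and knockdown arrays 2096 or 2204 in place of 3326 without the second or the third both-cDNA array. Leaving out the first ESR1 cDNA array and shLATS1+2 array 3 together gave 5776 genes with ESR1 cDNA, 5952 for the interaction and 1945 with YAP/TAZ cDNA. Replicate numbers showed no steady pairing of the samples. In 45 pairs of same-numbered arrays the deviations from group means correlated with r from -0.69 to 0.63, and 13 pairs were over 0.1. The median was -0.083, against 0.063 for arrays with different numbers, and 4 of 18 arrays were closest to their own number. Deviations within a group of 3 arrays are tied to each other, so a batch shared by number cannot be told from these values. The replicate block changed no other member call. Apart from the smaller or larger sets of arrays, the cause of these shifts was not tested.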

Other observations

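The genes most like the other members over the 18 arrays, by Pearson's r among the same 3447 genes, differed from those of GPX2 with 1 exception. NFE2L2 was nearest to OTUD1 (r = 0.98), MAML3, the aryl hydrocarbon receptor AHR, ETS2 and PHF21A (0.98 each). NQO1 was nearest to the urokinase gene PLAU (0.96), SMIM14 (0.95), the ferritin light chain FTL (0.94), the lysosomal protease CTSH (0.94) and the aldo-keto reductase AKR1C3 (0.94). TXNRD1 was nearest to MMP2 (0.94), which was also near GPX2, and then to BLNK, ELAPOR1, SLC28A3 and ADGRL3 (0.93 each). GCLC was nearest to the transcription factor MEF2A (0.93), RBM47 (0.93), LRP10 (0.91), MID2 (0.90) and BCL9 (0.90). GCLM was nearest to the xanthine dehydrogenase XDH (0.92), RAB11FIP2 (0.91), STXBP5, ACAP2 and L3MBTL3 (0.90 each). SRXN1 was nearest to PPP2R2C (0.95), TMEM133 (0.92), CYP4F11 (0.91), GOLPH3L (0.90) and TMEM181 (0.89). For the flat HMOX1 the nearest were SRCAP (0.67), MTMR3 (0.65), ZNF618 (0.63), UBN2 and TRAM2 (0.61 each), and for the flat OSGIN1 they were IFITM10 (0.66), ZBED3, TMEM270 and BHLHE41 (0.65 each) and BAG1 (0.64). These values describe arrays that share groups, and nothing about shared function or control was tested.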
